A study of Homo sapiens with 18 samples.

Results

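The genes described here are 34 human genes of the unfolded protein response and the amino acid stress response, read in 2 prostate cancer cell lines in which the transcription factor ONECUT2 had been manipulated. For each gene, the probe set that maps to that gene alone and has the highest mean over all 18 arrays was taken. All 34 were found among 19775 genes and all 34 passed the filter on low values. They fall into 17 ATF4-type genes and 17 genes of endoplasmic reticulum sensors, chaperones and degradation, called chaperone genes below. 22Rv1 and LNCaP are established human prostate carcinoma lines. Total RNA was hybridised to Affymetrix U133 Plus 2.0 arrays, and the deposited values are log2 expression values, so that a difference of 1 is a doubling. There were 6 groups of 3 arrays: 22Rv1 control, 22Rv1 with an ONECUT2 overexpression construct, 22Rv1 with a scramble shRNA, 22Rv1 with an ONECUT2 shRNA, LNCaP control and LNCaP with the overexpression construct. The construct was a tagged full-length ONECUT2 cDNA in a lentiviral vector with puromycin resistance, and transduced cells were selected to stable lines. The treatment label of both control groups reads vehicle, and an empty vector is not mentioned for them. Knockdown used 2 clones targeting ONECUT2, according to the protocol, with a non-target plasmid beside them. Whether replicates were grown as separate cultures is not labelled; p-values then measure only the spread among these samples, possibly technical.

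The unfolded protein response is the reaction of a cell to proteins that fold poorly in the endoplasmic reticulum. It has separate sensor branches: ERN1 (IRE1) splices XBP1 messenger RNA, ATF6 is cut to release a transcription factor, and the kinase EIF2AK3 (PERK) phosphorylates eIF2, which slows translation while ATF4 protein is made. Lack of amino acids reaches ATF4 through another eIF2 kinase, and ATF4 drives genes of amino acid synthesis, transport and tRNA charging as well as DDIT3 (CHOP). The chaperone genes are controlled largely by ATF6 and spliced XBP1 through a promoter sequence called the endoplasmic reticulum stress element (ERSE). ATF4, XBP1 and ATF6 are regulated mainly after transcription, so their messenger RNA is not a reading of their activity.

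The promoter sequences are shown because the known stress elements can be read in them without any measured value; they were found in only some genes of each class. Windows of 300 bases, from 250 before to 50 after each annotated start, were searched on both strands in RefSeq promoters of build GRCh38.p14, where 32 of the 34 genes had an entry. The full ERSE, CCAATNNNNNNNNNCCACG, occurred in 22 of 27305 promoters (0.0806%) and in 5 of 17 chaperone genes. The related ERSE-II, ATTGG and CCACG with 1 base of any kind between them, occurred in 15 promoters (0.0549%) and in 3 of 17 chaperone genes. None of the 15 ATF4-type genes with an entry held either. The ERSE and ERSE-II windows of the 8 chaperone genes follow, 5' to 3' on the strand of the gene, with the matched motif in capitals (CGTGG marks a match on the other strand).
HSPA5, chr9:125241371-125241429, minus strand: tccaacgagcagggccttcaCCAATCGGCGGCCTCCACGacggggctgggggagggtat
HSP90B1, chr12:103930196-103930359, plus strand: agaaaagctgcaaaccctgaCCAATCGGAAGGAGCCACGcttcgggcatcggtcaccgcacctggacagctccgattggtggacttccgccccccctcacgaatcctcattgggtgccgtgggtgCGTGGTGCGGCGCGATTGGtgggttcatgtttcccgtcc
XBP1, chr22:28800583-28800641, minus strand: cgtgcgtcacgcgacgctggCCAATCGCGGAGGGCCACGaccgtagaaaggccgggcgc
CALR, chr19:12938364-12938422, plus strand: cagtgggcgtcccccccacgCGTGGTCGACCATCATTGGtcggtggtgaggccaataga
CRELD2, chr22:49918534-49918592, plus strand: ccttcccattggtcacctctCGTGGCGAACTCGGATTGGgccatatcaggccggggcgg
HYOU1, chr11:119057254-119057410, minus strand: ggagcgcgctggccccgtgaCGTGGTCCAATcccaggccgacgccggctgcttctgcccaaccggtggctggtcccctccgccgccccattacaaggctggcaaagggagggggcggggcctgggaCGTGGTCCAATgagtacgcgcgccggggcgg
HERPUD1, chr16:56932005-56932055, plus strand: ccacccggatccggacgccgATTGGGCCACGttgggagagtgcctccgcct
SDF2L1, chr22:21642094-21642144, plus strand: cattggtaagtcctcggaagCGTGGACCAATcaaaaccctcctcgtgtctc

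The binding sequence of ATF4 with its partners is the CARE, whose core was searched as TGATGNAAT. It occurred in 279 promoters (1.02%) and in none of the 32 genes with an entry. A shorter core, TGATGNAA, which lies within the first and was chosen after that search, occurred in 1003 promoters (3.67%) and in 3 of 15 ATF4-type genes, namely CHAC1, ASNS and SLC3A2. HERPUD1 was the 1 chaperone gene of 17 that held it. A window without these letters says nothing about binding by the factor. The matches upstream of CHAC1, ASNS and HERPUD1 follow in the same notation, where TTGCATCA is the core read on the other strand.
CHAC1, chr15:40953242-40953289, plus strand: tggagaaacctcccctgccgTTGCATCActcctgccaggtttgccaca
ASNS, chr7:97872449-97872496, minus strand: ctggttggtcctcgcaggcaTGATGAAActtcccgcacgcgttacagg
HERPUD1, chr16:56931946-56931993, plus strand: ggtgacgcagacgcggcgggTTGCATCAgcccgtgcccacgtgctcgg

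**Figure D1:**
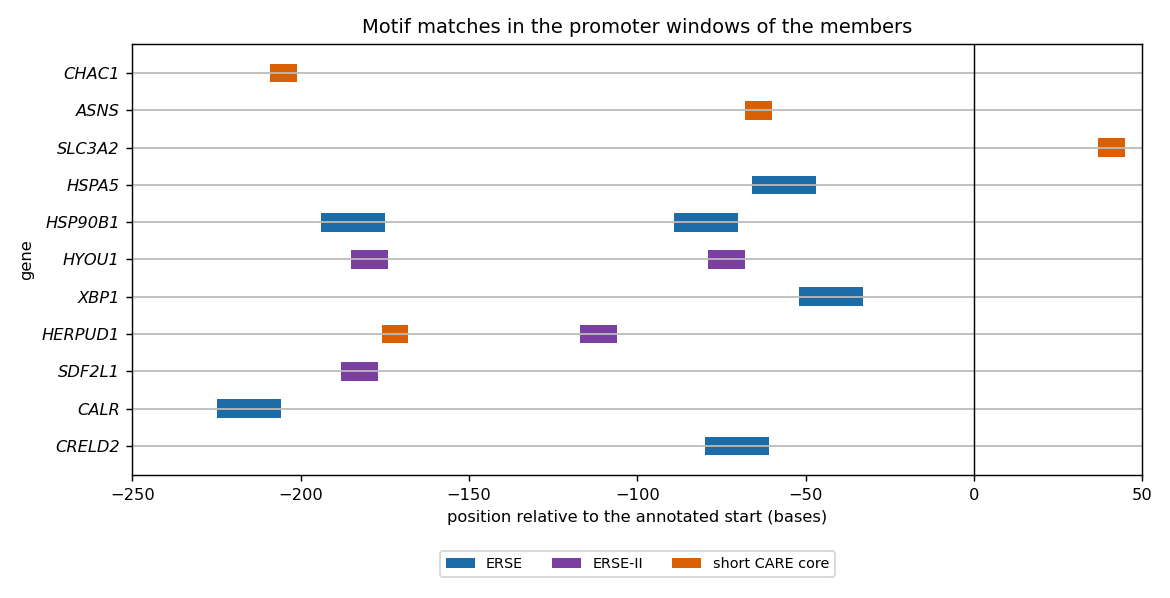
Position of each motif match (coloured block) in the promoter windows of the 11 genes that hold one; the x axis is the distance in bases from the annotated start (vertical line). The 5 ERSE genes and 3 ERSE-II genes are all chaperone genes, with 2 matches each in HSP90B1 and HYOU1, and the SLC3A2 match lies downstream of the start.

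Several features of the arrays moved with the groups. Each array had 38.3% to 40.0% of its probe sets above log2 4. The 3 LNCaP overexpression arrays were less alike than those of any other group, with a lowest correlation over probe sets of 0.975 where the other 5 groups had at least 0.996. Replicate 1 lay nearer the LNCaP controls, at a mean correlation of 0.969 against 0.948 and 0.953 for replicates 2 and 3, and LNCaP calls that were gained or lost without it are given both ways. The difference between the 3' and 5' beta-actin control probe sets, a sign of RNA length, was 8.06 ± 0.70 (SD, n = 3) in 22Rv1 overexpression against 4.11 ± 0.41 (SD, n = 3) in 22Rv1 control (exact two-sided permutation p = 0.1, the smallest that 3 against 3 allows). In LNCaP it was 2.85 ± 0.56 (SD, n = 3) under overexpression and 2.94 ± 0.25 (SD, n = 3) in control. The same difference for the GAPDH control probe sets was -0.43 ± 0.13 (SD, n = 3) in 22Rv1 overexpression and -0.70 ± 0.09 (SD, n = 3) in 22Rv1 control. In LNCaP the GAPDH difference was -0.68 ± 0.07 (SD, n = 3) in both groups. All 9 proliferation markers fell in 22Rv1 overexpression (median log2 difference -2.27), and 8 of 9 fell in LNCaP overexpression (median -4.06). Of 7 luminal markers read, 6 exceeded 4 on all 3 arrays of each 22Rv1 group and of LNCaP overexpression, and all 7 did in LNCaP control. In each overexpression comparison 3 of the 7 fell, among them the androgen-regulated kallikreins KLK3 (-3.02 in 22Rv1 and -6.68 in LNCaP) and KLK2 (-3.53 and -6.94), while 2 rose, EPCAM in both lines among them. All 4 leukocyte markers read were under 4 on every array. The summed level of the 7 stromal and endothelial markers was log2 8.18 to 8.33 in 22Rv1 control and 9.80 to 9.89 in 22Rv1 overexpression, and 7.84 to 8.42 in LNCaP control and 10.64 to 12.01 in LNCaP overexpression. COL1A1, a collagen gene, was the highest of them in every group. Its mean was 7.64 in 22Rv1 control and 9.76 in 22Rv1 overexpression, and 7.81 in LNCaP control and 11.44 in LNCaP overexpression. Only 3 of these markers passed the filter, and of those 1 rose and 2 fell in each overexpression comparison. The part of RNA length, proliferation and these markers in the results below was not tested. In bulk RNA, fewer cells of a type and less RNA per cell cannot be told apart.

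The ONECUT2 probe set read 8.23, 8.15 and 8.25 in 22Rv1 control and 8.59, 8.81 and 8.85 in 22Rv1 overexpression, a rise of 0.54 ± 0.16 (SE; limma adjusted p = 0.00702). In LNCaP it rose by 0.66 ± 0.16 (SE, adjusted p = 0.00153). It read 6.63, 6.71 and 7.08 on the arrays labelled scramble and 8.46 to 9.12 on those labelled ONECUT2 shRNA, which is higher by 2.05 ± 0.16 (SE, adjusted p = 7.33e-08) and against the label. The titles of these arrays read sh202 for those labelled scramble and sh43 for those labelled ONECUT2 shRNA. The titles do not settle which construct each group held. Directions in the shRNA comparisons are therefore given for the arrays as labelled. Where this probe set lies relative to the cDNA of the construct is not given in the sources used here.

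Under ONECUT2 overexpression in 22Rv1, the genes moved in both directions. Of the 34 genes, 13 rose and 12 fell at an adjusted p under 0.05, where 36.5% and 24.3% of all 12159 tested genes did (60.8% either way). All 3 overexpression arrays lay above the controls for 17 of the genes and below them for 14, where 44.7% and 32.0% of all genes did. ERN1, the IRE1 sensor, rose most, by 2.92 on the log2 scale (7.55-fold), and HSP90B1, the endoplasmic reticulum form of HSP90, fell most, by 1.47 (2.77-fold). By class, 7 ATF4-type genes rose and 5 fell, and 6 chaperone genes rose and 7 fell. Centring each array on the median of the tested genes moved the median of all genes from 0.10 to -0.07 and gave 11 higher and 13 lower; the share of all calls that were higher went from 60.1% to 46.0%.

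In LNCaP, 11 of the 34 genes rose and 13 fell under overexpression, where 34.1% and 28.0% of all genes did (62.2% either way). The overexpression arrays lay all above the controls for 10 and all below for 11, where 32.0% and 26.2% of all genes did. DDIT3, the transcription factor CHOP, rose most, by 2.15 (4.43-fold), and PHGDH, the first enzyme of serine synthesis, fell most, by 1.86 (3.63-fold). Among ATF4-type genes 4 rose and 7 fell, and among chaperone genes 7 rose and 6 fell. The median difference was -0.04 over the 34 genes and 0.09 over all genes, against 0.18 and 0.10 in 22Rv1. Without LNCaP overexpression replicate 1, 15 rose and 12 fell.

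The comparisons in 22Rv1 and LNCaP share no arrays. In both lines 8 genes rose, namely DDIT3, CHAC1, PPP1R15A, ERN1, ATF6, DNAJB9, EDEM1 and HERPUD1, which is 23.5% of the genes against 21.8% of all genes. In both lines 6 fell, namely PHGDH, PSAT1, SHMT2, HSP90B1, PDIA4 and MANF, or 17.6% against 14.1%. These shares lie near those of all genes. Opposite calls were made for ASNS and CEBPB, which rose in 22Rv1 and fell in LNCaP, and for SLC3A2, HSPA5 and CRELD2, which fell in 22Rv1 and rose in LNCaP. PSPH, DDIT4, WARS1 and HYOU1 were called in neither line.

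**Figure D2:**
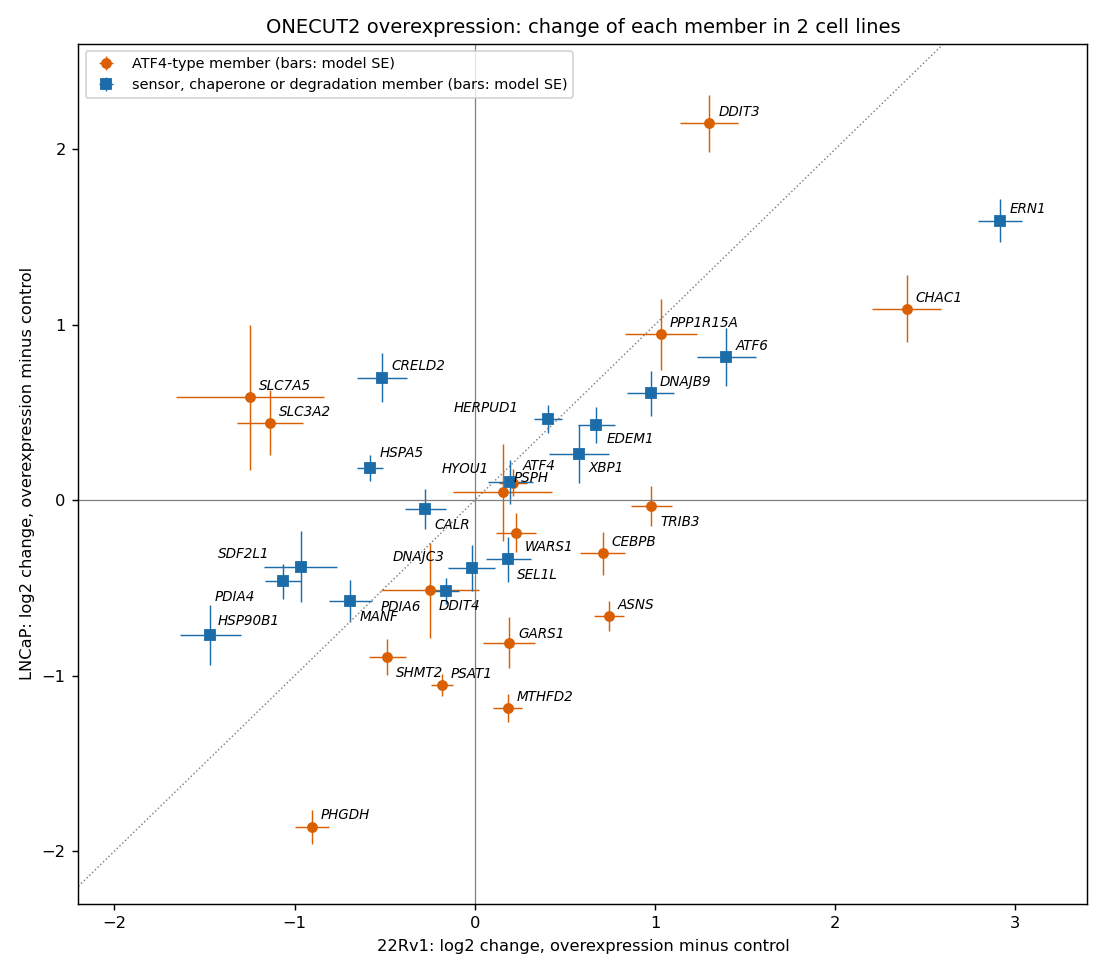
Log2 change of each of the 34 genes under ONECUT2 overexpression in 22Rv1 (x axis) and LNCaP (y axis), with standard errors of the limma model; circles are ATF4-type genes, squares chaperone genes, and the dotted line marks equal change. ERN1 lies at 2.92 and 1.59 and PHGDH at -0.90 and -1.86, and ASNS and SLC3A2 have opposite signs in the 2 lines; CHAC1 in 22Rv1 and PPP1R15A in LNCaP are drawn at measured values, for which the text gives bounds.

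Among the regulators of the ATF4 branch, with the enzyme CHAC1 counted among them, 6 of 7 rose in 22Rv1 and 3 of 7 in LNCaP. Of all genes, 36.5% and 34.1% did. DDIT3, which promotes cell death under lasting stress, read 8.76, 9.06 and 8.76 in 22Rv1 control and 10.14, 10.15 and 10.19 under overexpression. In LNCaP it read 7.13, 6.90 and 6.94 in control and 8.74, 9.54 and 9.14 under overexpression. The overexpression arrays lay above the controls in both lines. The rises were 1.30 ± 0.16 (SE, adjusted p = 3.08e-06) and 2.15 ± 0.16 (SE, adjusted p = 8.16e-09). DDIT3 was lower in LNCaP control than in 22Rv1 control, by a log2 difference of -1.87.

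CHAC1, a glutathione-degrading enzyme induced by ATF4 and CHOP, was under a log2 value of 4 in 22Rv1 control at 3.38, 3.78 and 3.45. It read 6.03, 5.71 and 6.07 under overexpression, so that the rise was at least 3.82-fold when measured from 4 (adjusted p = 2.27e-08). In LNCaP it went from 4.31, 4.66 and 4.32 to 5.24, 5.91 and 5.41, a rise of 1.09 ± 0.19 (SE, adjusted p = 0.00012). The groups did not overlap in either line. PPP1R15A (GADD34), which brings phosphatase to eIF2 and so restores translation, read 4.07, 4.43 and 4.28 in 22Rv1 control and 5.58, 5.01 and 5.29 under overexpression, a rise of 1.03 ± 0.20 (SE, adjusted p = 0.000307). In LNCaP control it was under 4 at 3.19, 3.39 and 3.25, and under overexpression it read 3.61, 4.53 and 4.52, higher by at least 1.17-fold (adjusted p = 0.000642).

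TRIB3, a pseudokinase that holds back ATF4 and AKT signalling, read 11.37, 11.47 and 11.42 in 22Rv1 control and 12.40, 12.42 and 12.37 under overexpression. That is a rise of 0.98 ± 0.11 (SE, adjusted p = 1.67e-06). In LNCaP the values overlapped, at 11.09, 11.05 and 10.87 in control and 10.65, 11.23 and 11.03 under overexpression. The LNCaP difference was -0.04 ± 0.11 (SE, adjusted p = 0.805).

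CEBPB, a leucine-zipper factor of stress and differentiation, read 9.76, 9.87 and 9.86 in 22Rv1 control and 10.68, 10.47 and 10.47 under overexpression, a rise of 0.71 ± 0.12 (SE, adjusted p = 0.000125). In LNCaP it fell by 0.30 ± 0.12 (SE, adjusted p = 0.0445). That fall rested on few arrays: without LNCaP overexpression replicate 1 it was -0.14 (adjusted p = 0.202), without LNCaP control replicate 2 it was -0.20 (adjusted p = 0.205), and without control replicate 1 it was -0.34 (adjusted p = 0.0514). ATF4 itself read between 11.65 and 11.75 in 22Rv1 control and between 11.84 and 11.97 under overexpression, a rise of 0.21 ± 0.08 (SE, adjusted p = 0.0246). The ATF4 call was lost without 22Rv1 control replicate 1, control replicate 3 or overexpression replicate 3 (adjusted p = 0.0751, 0.0711 and 0.102), and with centring on the tested genes (0.04, adjusted p = 0.732). In LNCaP the ATF4 difference was 0.10 ± 0.08 (SE, adjusted p = 0.272).

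DDIT4 (REDD1), which restrains mTORC1, was called in neither overexpression comparison. It read 8.41, 8.46 and 8.56 in 22Rv1 control and 8.31, 8.12 and 8.25 under overexpression. In LNCaP it read 10.11, 10.08 and 9.94 in control but 8.55, 10.23 and 9.80 under overexpression, so replicate 1 alone lay well below the controls. The DDIT4 difference was -0.51 ± 0.27 with all arrays (SE, adjusted p = 0.11), -0.024 without replicate 1 (adjusted p = 0.869) and -0.87 without replicate 2 (adjusted p = 0.00458).

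The enzymes of amino acid synthesis and one-carbon metabolism fell more in LNCaP than in 22Rv1. Of 6 such genes, 1 rose and 3 fell in 22Rv1, and 5 fell in LNCaP. Of all genes, 36.5% rose and 24.3% fell in 22Rv1, and 28.0% fell in LNCaP. The LNCaP change was lower than the 22Rv1 change for 5 of the 6 in a test of the difference itself, with PSPH the exception. Of all genes, 26.6% were called lower in that test. For PSAT1 and SHMT2 the call depended on the probe set, as given below. For SHMT2 that call was lost without 22Rv1 control replicate 1 or 3, 22Rv1 overexpression replicate 1 or 3 or LNCaP control replicate 2 (adjusted p from 0.0513 to 0.0864). PHGDH read 9.72, 9.74 and 9.72 in 22Rv1 control and 8.79, 8.85 and 8.84 under overexpression. LNCaP values were 10.98, 11.18 and 10.81 in control and 9.21, 9.05 and 9.14 under overexpression. No overexpression array reached a control array of its line. PHGDH fell by 0.90 ± 0.10 (SE, adjusted p = 5.9e-07) in 22Rv1 and by 1.86 ± 0.10 (SE, adjusted p = 7.9e-11) in LNCaP.

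PSAT1, the next enzyme of serine synthesis, fell by 1.05 ± 0.06 (SE, adjusted p = 5.17e-10) in LNCaP, from 13.66, 13.69 and 13.60 to 12.44, 12.70 and 12.65. In 22Rv1 it fell by 0.18 ± 0.06 (SE, adjusted p = 0.0198), a call that was lost without control replicate 3 or overexpression replicate 1 (adjusted p = 0.069 and 0.0648). A second PSAT1 probe set fell by 1.47 in 22Rv1 (adjusted p = 1.43e-07) and by 1.86 in LNCaP (adjusted p = 4.81e-09). Its difference between the lines was not called (-0.40, adjusted p = 0.196). Here and below, p-values of other probe sets are adjusted over all 54675 probe sets, without the filter. PSPH, which completes serine synthesis, was called in neither line. Its LNCaP overexpression arrays spread from 10.76 in replicate 1 to 12.37 and 12.03, around controls of 11.67, 11.74 and 11.60. Without replicate 1 PSPH was higher by 0.53 (adjusted p = 0.00275).

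SHMT2, the mitochondrial enzyme that turns serine into glycine and a one-carbon unit, fell in both lines, by 0.49 ± 0.10 (SE, adjusted p = 0.000608) in 22Rv1 and by 0.89 ± 0.10 (SE, adjusted p = 1.23e-06) in LNCaP. For another SHMT2 probe set the difference between the lines was not called (-0.35, adjusted p = 0.161), and for a further one it was -1.08 (adjusted p = 0.00102). MTHFD2 acts after SHMT2 in the mitochondrial pathway. It read 12.12, 12.11 and 12.14 in 22Rv1 control and 12.28, 12.33 and 12.30 under overexpression, a difference of 0.18 ± 0.08 that was not called (SE, adjusted p = 0.0552). In LNCaP it read 11.92, 12.01 and 11.96 in control and 10.54, 10.87 and 10.93 under overexpression, a fall of 1.18 ± 0.08 (SE, adjusted p = 1.83e-09). All 3 LNCaP overexpression arrays of MTHFD2 lay below every control.

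ASNS, which makes asparagine and is a classical ATF4 target, moved in opposite directions. It read 12.25, 12.41 and 12.43 in 22Rv1 control and 13.21, 13.02 and 13.10 under overexpression, a rise of 0.75 ± 0.08 (SE, adjusted p = 9.66e-07). In LNCaP it read 12.02, 12.28 and 11.93 in control and 11.38, 11.43 and 11.44 under overexpression, a fall of 0.66 ± 0.08 (SE, adjusted p = 3.7e-06). The groups did not overlap in either line, and the difference between the 2 changes was -1.41 ± 0.12 (SE, adjusted p = 1.4e-07). The ASNS promoter window holds the short CARE core shown above.

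The transporter pair SLC3A2 (CD98 heavy chain) and SLC7A5 (LAT1), which together import large neutral amino acids, fell in 22Rv1. SLC3A2 read 9.05, 9.16 and 9.27 in control and 8.03, 8.09 and 7.94 under overexpression, a fall of 1.14 ± 0.19 (SE, adjusted p = 5.74e-05). SLC7A5 read 11.48, 11.65 and 11.73 in control and 10.41, 10.33 and 10.39 under overexpression, a fall of 1.25 ± 0.41 (SE, adjusted p = 0.0157). Both pairs of groups were fully apart.

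In LNCaP the same transporters varied between the overexpression arrays. SLC7A5 read 3.56, 5.25 and 6.19 there, around controls of 4.47, 4.52 and 4.25, and was not called (0.59 ± 0.41, SE; adjusted p = 0.229). Replicate 1 was the only array of the 18 with SLC7A5 under 4, and without it the gene was higher by 1.31 (adjusted p = 9.36e-06). SLC3A2 read 7.19, 8.07 and 7.90 against 7.23, 7.51 and 7.10. It rose by 0.44 ± 0.19 (SE, adjusted p = 0.0481), with 1 array inside the control range. That call was lost without overexpression replicate 2 (0.27, adjusted p = 0.229) or 3 (0.35, adjusted p = 0.159), and without control replicate 1 or 3 (adjusted p = 0.11 and 0.164). Without overexpression replicate 1 the SLC3A2 difference was larger, at 0.71 (adjusted p = 0.000128).

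The tRNA synthetases WARS1 and GARS1, which charge tRNA with tryptophan and glycine, did not pass the test in 22Rv1, at 0.23 ± 0.11 (SE, adjusted p = 0.0862) and 0.19 ± 0.15 (SE, adjusted p = 0.27). WARS1 passed without 22Rv1 control replicate 2, at 0.31 (adjusted p = 0.0432). GARS1 fell in LNCaP by 0.81 ± 0.15 (SE, adjusted p = 0.00014), from 10.97, 11.19 and 11.02 to 10.66, 9.93 and 10.14. WARS1 differed by -0.19 ± 0.11 in LNCaP (SE, adjusted p = 0.158) and passed there without overexpression replicate 3, at -0.29 (adjusted p = 0.0331); without replicate 1 it was -0.11 (adjusted p = 0.387). The probe sets of WARS1 disagreed: a second one fell by 0.91 in 22Rv1 (adjusted p = 0.000168).

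**Figure D3:**
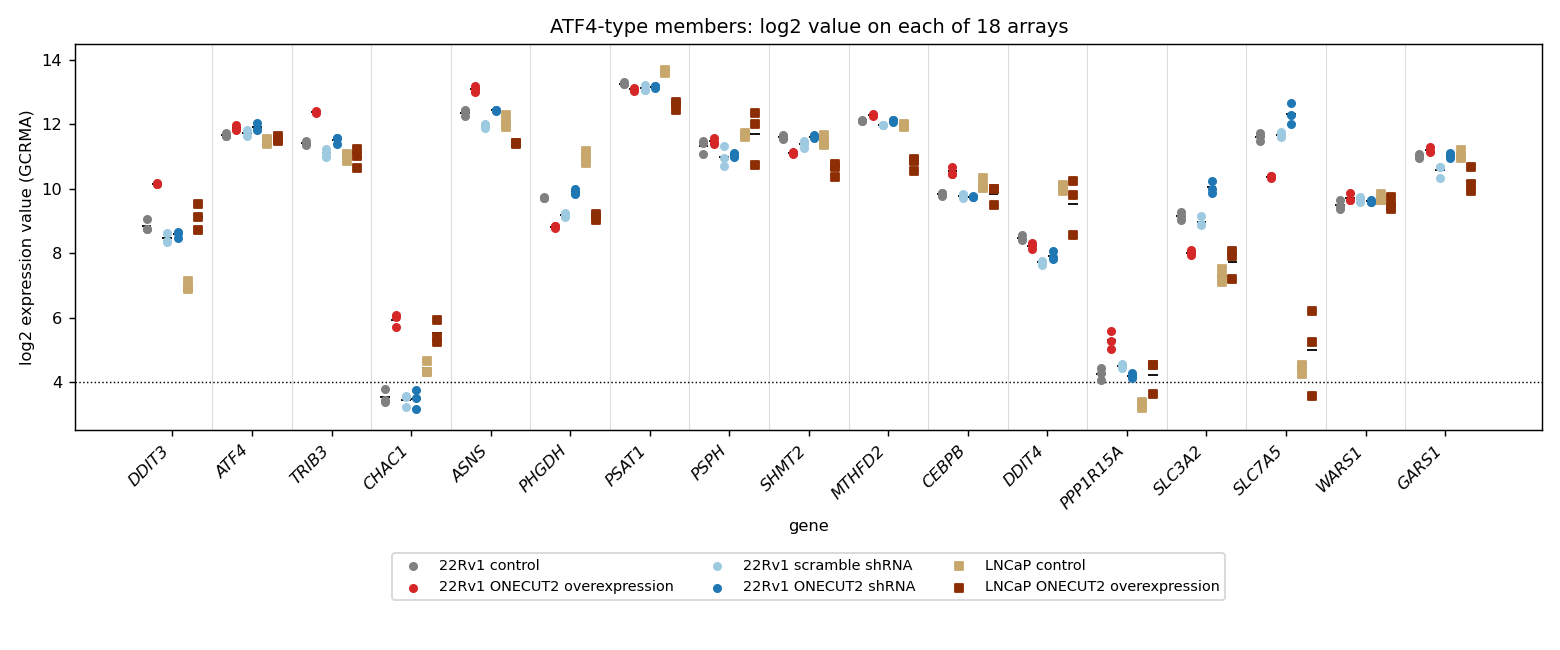
Log2 expression value of the 17 ATF4-type genes on each of the 18 arrays; each symbol is 1 array, short bars are group means, and the dotted line marks a log2 value of 4, under which levels are read only as bounds. DDIT3 is highest in 22Rv1 overexpression (10.14 to 10.19), SLC7A5 is near 4 in LNCaP and over 10 in every 22Rv1 group, and the LNCaP overexpression arrays of PSPH, DDIT4 and SLC7A5 are spread widely.

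Of the 3 sensors and factors, all rose in 22Rv1 and 2 rose in LNCaP, where 36.5% and 34.1% of all genes did. ERN1 read 7.28, 7.51 and 7.25 in 22Rv1 control and 10.17, 10.35 and 10.28 under overexpression. The LNCaP arrays read 8.86, 8.79 and 9.11 in control and 10.44, 10.52 and 10.58 under overexpression. Control levels differed between the lines by 1.57, while the 6 overexpression arrays lay between 10.17 and 10.58. The rises were 2.92 ± 0.12 (SE, adjusted p = 2.05e-11) and 1.59 ± 0.12 (SE, adjusted p = 1.14e-08). A second ERN1 probe set rose by 1.96 and 1.34, and another did not pass the test in either line, at -0.10 and 0.08.

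ATF6, the sensor that becomes a transcription factor, read 9.08, 9.07 and 9.04 in 22Rv1 control and 10.46, 10.53 and 10.39 under overexpression, a rise of 1.40 ± 0.16 (SE, adjusted p = 1.86e-06). In LNCaP it read 7.89, 7.80 and 7.90 in control and 9.12, 8.19 and 8.72 under overexpression, a rise of 0.81 ± 0.16 (SE, adjusted p = 0.000429). The overexpression arrays were above the controls in both lines. Of 3 other ATF6 probe sets, 1 rose in both lines, by 1.18 and 0.64. Another, with a mean of 4.31 over all arrays, fell in LNCaP by 0.39 (adjusted p = 0.0181), so the LNCaP direction depends on the probe set. The last, with a mean of 4.17, was called in neither line.

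XBP1, the factor made after splicing by ERN1, rose in 22Rv1 from 11.16, 10.93 and 11.20 to 11.67, 11.75 and 11.61, by 0.58 ± 0.17 (SE, adjusted p = 0.0063). With centring on the tested genes the XBP1 difference was 0.40 (adjusted p = 0.0604). In LNCaP XBP1 was not called (0.26 ± 0.17, SE; adjusted p = 0.177). There replicate 1 read 11.16 and the others 12.05 and 11.77, against controls of 11.47, 11.28 and 11.44, and without replicate 1 the difference was 0.51 (adjusted p = 0.000551). These probe sets do not tell spliced from unspliced XBP1.

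Of 9 folding genes, 1 rose, 5 fell and 3 did not pass the test in 22Rv1; of the 5, CALR lost its call on leaving out any array and HSPA5 rests on 1 probe set, as given below. In LNCaP 2 rose and 4 fell. The shares of all genes were 36.5% higher and 24.3% lower in 22Rv1, and 34.1% and 28.0% in LNCaP. HSP90B1 (GRP94), the endoplasmic reticulum HSP90, read 11.12, 11.13 and 11.25 in 22Rv1 control and 9.88, 9.59 and 9.63 under overexpression. LNCaP control read 9.85, 9.78 and 9.92 and LNCaP overexpression 9.49, 8.88 and 8.87. Every overexpression array was below every control of its line. The falls were 1.47 ± 0.17 (SE, adjusted p = 1.56e-06) and 0.77 ± 0.17 (SE, adjusted p = 0.000918). The probe set is of a kind that may also bind related transcripts, and a second one fell by 1.91 and 0.92.

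PDIA4, a disulfide isomerase, fell from 11.59, 11.52 and 11.68 to 10.62, 10.53 and 10.43 in 22Rv1, by 1.06 ± 0.10 (SE, adjusted p = 1.53e-07). In LNCaP it fell from 10.64, 10.48 and 10.73 to 9.93, 10.28 and 10.26, by 0.46 ± 0.10 (SE, adjusted p = 0.000812). A second PDIA4 probe set fell by 0.96 in 22Rv1 (adjusted p = 2.28e-05) and was not called in LNCaP (-0.25, adjusted p = 0.219). SDF2L1, part of a chaperone complex with HSPA5, fell in 22Rv1 by 0.97 ± 0.20 (SE, adjusted p = 0.000558) and was not called in LNCaP (-0.38 ± 0.20, SE; adjusted p = 0.113). Without LNCaP overexpression replicate 2 the SDF2L1 difference there was -0.52 (adjusted p = 0.0469), and without replicate 1 it was -0.11 (adjusted p = 0.527).

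HSPA5 (BiP), the main chaperone of the endoplasmic reticulum and the one that holds the sensors inactive, read 13.45, 13.54 and 13.54 in 22Rv1 control and 13.11, 12.82 and 12.86 under overexpression. That is a fall of 0.58 ± 0.07 (SE, adjusted p = 3.66e-06). A second, dimmer HSPA5 probe set gave 0.11 there (adjusted p = 0.747), so the fall rests on 1 probe set. In LNCaP HSPA5 read 13.18, 13.03 and 13.25 in control and 13.33, 13.34 and 13.34 under overexpression, a rise of 0.18 ± 0.07 (SE, adjusted p = 0.0377). The LNCaP call was lost without control replicate 1 or 2 (adjusted p = 0.0578 and 0.187) and without overexpression replicate 2 or 3 (adjusted p = 0.0721 and 0.0793). Without control replicate 2 the difference was 0.12. The dimmer HSPA5 probe set rose by 0.76 in LNCaP (adjusted p = 0.0062).

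DNAJB9 (ERdj4), a co-chaperone of HSPA5 and a target of spliced XBP1, was the folding gene that rose in both lines. It read 10.15, 9.97 and 10.22 in 22Rv1 control and 11.07, 11.16 and 11.04 under overexpression, a rise of 0.98 ± 0.13 (SE, adjusted p = 6.66e-06). In LNCaP it rose by 0.61 ± 0.13 (SE, adjusted p = 0.000649), and both other DNAJB9 probe sets rose in both lines. DNAJC3 (p58IPK), another co-chaperone, differed by -0.02 ± 0.13 in 22Rv1 (SE, adjusted p = 0.921) and fell in LNCaP by 0.39 ± 0.13 (SE, adjusted p = 0.017). The DNAJC3 call in LNCaP was lost without overexpression replicate 2, at -0.20 (adjusted p = 0.11), and without control replicate 3 (adjusted p = 0.0583), and was -0.58 without overexpression replicate 1 (adjusted p = 9.35e-06). In 22Rv1, 2 other DNAJC3 probe sets fell by 1.29 and 0.90.

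PDIA6, a further disulfide isomerase, fell in LNCaP by 0.52 ± 0.07 (SE, adjusted p = 1.41e-05). In 22Rv1 it differed by -0.16 ± 0.07 (SE, adjusted p = 0.0677), and all 3 of its other probe sets fell there, by 0.38, 0.54 and 1.81. CALR (calreticulin), a lectin chaperone for glycoproteins, fell in 22Rv1 by 0.28 ± 0.11 (SE, adjusted p = 0.0467), but this call was lost on leaving out any 1 of the 6 arrays (adjusted p from 0.0611 to 0.149). Another CALR probe set fell by 1.22 in 22Rv1 (adjusted p = 2.4e-06). HYOU1 (GRP170), the nucleotide exchange factor of HSPA5, differed by 0.20 ± 0.12 in 22Rv1 (SE, adjusted p = 0.181) and 0.11 ± 0.12 in LNCaP (SE, adjusted p = 0.478). Its LNCaP overexpression arrays read 10.44, 11.12 and 10.92, and without replicate 1 HYOU1 was higher by 0.30 (adjusted p = 0.0033).

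Genes of endoplasmic reticulum-associated degradation, which removes misfolded proteins, counted 2 higher and 0 lower of 3 in 22Rv1, and 2 higher and 1 lower in LNCaP. The shares of all genes were 36.5% higher and 24.3% lower in 22Rv1, and 34.1% and 28.0% in LNCaP. EDEM1, which marks misfolded glycoproteins for disposal, read 7.01, 7.20 and 7.12 in 22Rv1 control and 7.74, 7.83 and 7.79 under overexpression, a rise of 0.67 ± 0.10 (SE, adjusted p = 2.74e-05). In LNCaP EDEM1 rose by 0.43 ± 0.10 (SE, adjusted p = 0.00164). HERPUD1, a membrane component of the degradation complex, rose by 0.41 ± 0.08 (SE, adjusted p = 0.000352) in 22Rv1 and 0.46 ± 0.08 (SE, adjusted p = 0.0001) in LNCaP, with no overlap in either line. SEL1L, the adaptor of the ubiquitin ligase, was not called in 22Rv1 (0.19 ± 0.13, SE; adjusted p = 0.215). In LNCaP it fell by 0.34 ± 0.13 (SE, adjusted p = 0.0282), a call that was lost without control replicate 1 or 3 or overexpression replicate 2 or 3 (adjusted p = 0.0832, 0.0999, 0.088 and 0.117). Another SEL1L probe set fell by 0.38 in 22Rv1 (adjusted p = 0.0294) and by 1.13 in LNCaP (adjusted p = 7.14e-07). A further SEL1L probe set fell by 0.35 in 22Rv1 (adjusted p = 0.0456) and by 0.75 in LNCaP (adjusted p = 0.000116). The remaining one was called in neither line, at 0.19 and -0.23.

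The remaining chaperone genes encode proteins that reside in the endoplasmic reticulum and are secreted under stress. MANF, a trophic factor, fell in both lines, from 11.47, 11.56 and 11.56 to 10.87, 10.86 and 10.79 in 22Rv1 and from 10.39, 10.39 and 10.61 to 9.79, 9.93 and 9.94 in LNCaP. The falls were 0.69 ± 0.12 (SE, adjusted p = 0.000108) and 0.58 ± 0.12 (SE, adjusted p = 0.000543). CRELD2 went in opposite directions. It read 12.31, 12.45 and 12.16 in 22Rv1 control and 11.84, 11.77 and 11.77 under overexpression, a fall of 0.51 ± 0.14 (SE, adjusted p = 0.00478). In LNCaP it rose from 10.35, 10.46 and 10.67 to 10.75, 11.43 and 11.40, by 0.70 ± 0.14 (SE, adjusted p = 0.000416).

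Read against the promoters printed above, the 8 chaperone genes with an ERSE or ERSE-II counted 2 higher and 5 lower in 22Rv1 (median -0.39). The 9 without counted 4 higher and 2 lower there (median 0.19). In LNCaP the counts were 3 higher and 1 lower with the motif (median 0.14) and 4 higher and 5 lower without (median -0.34). Of all genes, 36.5% were higher and 24.3% lower in 22Rv1, and 34.1% and 28.0% in LNCaP. These splits by motif are descriptions of few genes and were not tested.

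**Figure D4:**
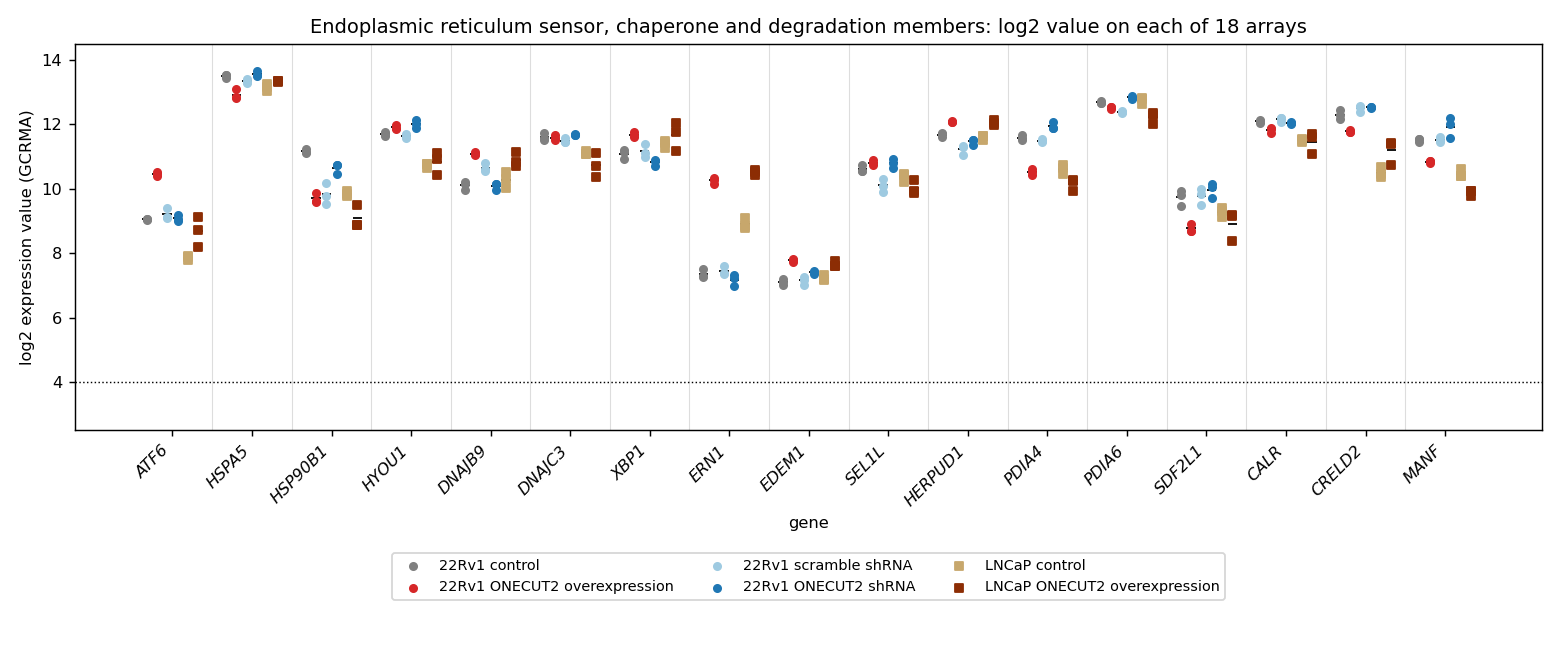
Log2 expression value of the 17 chaperone genes on each of the 18 arrays, drawn as for the ATF4-type genes. ERN1 lies above 10 on all 6 overexpression arrays and between 6.98 and 9.11 on the other 12, whereas HSP90B1, PDIA4 and MANF lie below control in both overexpression groups.

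The difference between the lines was tested as the LNCaP change minus the 22Rv1 change. It passed the test for 20 of the 34 genes, 7 with a higher and 13 with a lower change in LNCaP, where 18.1% and 26.6% of all genes did (44.7% either way). With arrays centred on the median of the tested genes, these counts were 8 and 9, and the share of all calls that were higher went from 40.4% to 58.8%. Among ATF4-type genes 3 were higher and 10 lower, with a median of -0.42, and among chaperone genes 4 were higher and 3 lower, with a median of -0.09. The median over all genes was -0.10. SLC7A5 had the largest positive difference, 1.83 ± 0.58 (SE, adjusted p = 0.0179), and ASNS the largest negative one. MTHFD2 (-1.37 ± 0.11, SE; adjusted p = 1.05e-07), ERN1 (-1.32 ± 0.17, SE; adjusted p = 1.59e-05) and GARS1 (-1.005 ± 0.21, SE; adjusted p = 0.000912) also changed less or more negatively in LNCaP. CRELD2 (1.21 ± 0.20, SE; adjusted p = 0.000137) and HSPA5 (0.76 ± 0.10, SE; adjusted p = 2.04e-05) changed more positively. Other probe sets did not pass for ERN1 (-0.62 and 0.18, adjusted p = 0.405 and 0.538) or HSPA5 (0.65, adjusted p = 0.119). Without LNCaP overexpression replicate 1, 9 of the genes were higher and 15 lower.

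The control cells of the lines differed in these genes about as often as in all genes. LNCaP control was higher than 22Rv1 control for 6 and lower for 16 of the 34, where 30.2% and 33.5% of all genes were (63.6% either way). Chaperone genes were 1 higher and 9 lower, with a median of -0.46 against -0.04 over all genes. This comparison uses the same control arrays as the overexpression comparisons, so its values are given beside them only. SLC7A5 read 11.48, 11.65 and 11.73 in 22Rv1 control and 4.47, 4.52 and 4.25 in LNCaP control, lower by 148-fold (adjusted p = 2.71e-10). Its partner SLC3A2 was lower by 3.67-fold (adjusted p = 1.77e-07), DDIT3 by 3.65-fold (adjusted p = 3.36e-08) and CRELD2 by 3.51-fold (adjusted p = 9.67e-09). ERN1 was 2.98-fold higher in LNCaP control (adjusted p = 9.95e-09), DDIT4 2.96-fold (adjusted p = 8.6e-05) and PHGDH 2.40-fold (adjusted p = 7.49e-09). For ATF6 the probe set used was lower in LNCaP control by 2.30-fold, and another, with a mean of 7.34 over all arrays, was lower by 1.63 (adjusted p = 4.65e-06). The 2 remaining ATF6 probe sets, with means of 4.31 and 4.17, were higher by 0.67 and 1.04 (adjusted p = 0.000137 and 5.2e-06). That direction is therefore not settled, and the opposing probe sets lie near a log2 value of 4.

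Among the 22Rv1 arrays labelled ONECUT2 shRNA and scramble, most of the genes that passed the test were higher on the first. Of the 34, 13 were higher and 1 lower, where 13.4% and 16.1% of all genes were (29.6% either way). The median was 0.20 over the 34 genes and -0.03 over all genes. The 13 were TRIB3, ASNS, PHGDH, SLC3A2, GARS1, HSPA5, HSP90B1, HYOU1, SEL1L, HERPUD1, PDIA4, PDIA6 and MANF. Other probe sets over the filter did not pass for HSPA5 (0.56, adjusted p = 0.0814) and HSP90B1 (0.69, adjusted p = 0.0639). None of the other SEL1L probe sets passed (0.20, 0.45 and 0.01, adjusted p from 0.0706 to 0.98). Of the other PDIA6 probe sets, those at 0.14 and 0.30 did not pass and that at 0.25 did (adjusted p = 0.0484). The second PDIA4 probe set passed (1.13, adjusted p = 1.77e-05). SLC3A2 differed most, reading 9.17, 8.88 and 8.90 on scramble arrays and 10.26, 9.99 and 9.88 on ONECUT2 shRNA arrays, higher by 1.06 ± 0.19 (SE, adjusted p = 0.000403). HSP90B1 read 9.78, 9.51 and 10.19 and then 10.73, 10.75 and 10.48, higher by 0.82 ± 0.17 (SE, adjusted p = 0.00166). PHGDH read 9.18, 9.25 and 9.13 and then 9.83, 9.99 and 9.86, higher by 0.71 ± 0.10 (SE, adjusted p = 4.47e-05).

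DNAJB9 was the single gene lower on the ONECUT2 shRNA arrays, by 0.58 ± 0.13 (SE, adjusted p = 0.00301), at 10.14, 10.16 and 9.95 against 10.80, 10.55 and 10.62. The count of higher genes rested partly on scramble replicate 3, without which 7 of the 13 passed the test. TRIB3, GARS1, HSPA5, HYOU1, HERPUD1 and MANF did not pass without it (adjusted p from 0.0547 to 0.135). HYOU1 was called with all arrays only, apart from the fit without ONECUT2 shRNA replicate 1 (adjusted p up to 0.13). GARS1, HSPA5, HERPUD1 and MANF also lost their calls without ONECUT2 shRNA replicate 1 (adjusted p from 0.0585 to 0.129), and GARS1, HERPUD1 and MANF without replicate 2 (adjusted p from 0.0703 to 0.0961). HSPA5 lost it without scramble replicate 2 (adjusted p = 0.0755) and MANF without scramble replicate 1 (adjusted p = 0.051). Overexpression in 22Rv1 and this comparison share no arrays. Lower under overexpression and higher here were 6 genes, namely PHGDH, SLC3A2, HSPA5, HSP90B1, PDIA4 and MANF, which is 17.6% of the genes against 4.57% of all genes. Higher under overexpression and lower here was DNAJB9, or 2.94% against 8.24%. TRIB3, ASNS and HERPUD1 were higher in both (8.82% against 4.65%). ONECUT2 itself was higher in both, as given above.

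Each shRNA group was also set against 22Rv1 control, with which the overexpression comparison shares its control arrays. On scramble arrays 1 gene was higher and 7 were lower, where 12.5% and 9.40% of all genes were (21.9% either way). With centring on the tested genes 11 were lower, and the share of all calls that were higher went from 57.0% to 43.7%. DNAJB9 was higher by 0.54 ± 0.13 (SE, adjusted p = 0.00656), and ASNS, PHGDH, GARS1, HSP90B1, SEL1L, HERPUD1 and PDIA6 were lower. HSP90B1 fell furthest, by 1.34 ± 0.17 (SE, adjusted p = 3.67e-05), and scramble arrays at 9.51 to 10.19 lay beside those of 22Rv1 overexpression at 9.59 to 9.88. The GARS1 call here (adjusted p = 0.0416) was lost on leaving out any 1 of the 6 arrays (adjusted p from 0.0544 to 0.169).

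On ONECUT2 shRNA arrays 1 of the 34 genes differed from 22Rv1 control, where 4.46% of all genes did (2.35% higher and 2.11% lower). It was SLC3A2, higher by 0.89 ± 0.19 (SE, adjusted p = 0.0111), a call that was lost without control replicate 1 (adjusted p = 0.0616). PDIA4 (0.36 ± 0.10, SE; adjusted p = 0.0524) and MANF (0.40 ± 0.12, SE; adjusted p = 0.0696) lay near the threshold, and MANF passed without ONECUT2 shRNA replicate 3, at 0.58 (adjusted p = 0.00382). Fits with other weights or fewer groups called up to 9 genes higher and 5 lower here.

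**Figure D5:**
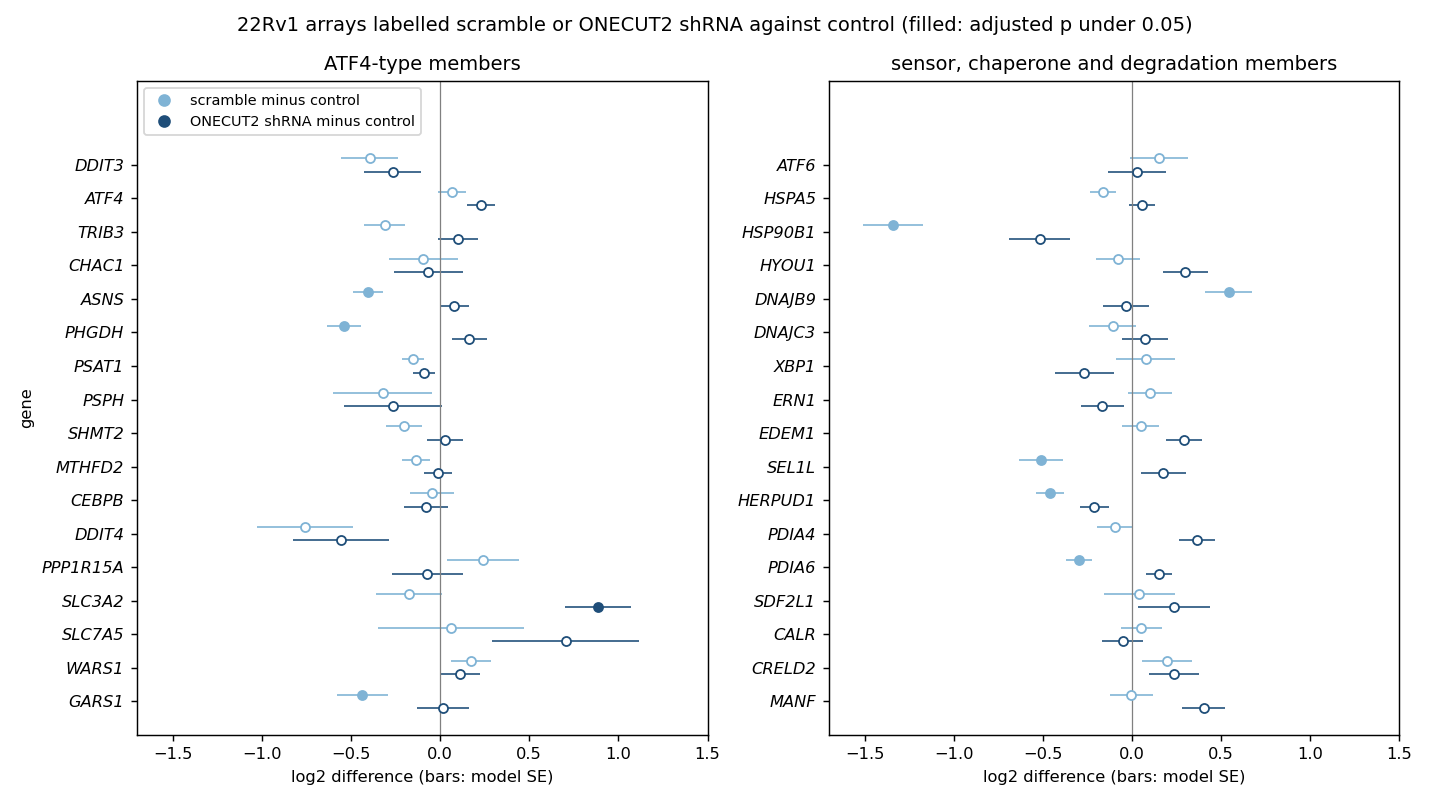
Log2 difference from 22Rv1 control of each gene on the arrays labelled scramble (light) and ONECUT2 shRNA (dark), with standard errors of the limma model; filled symbols passed the test. Both groups are set against the same 3 control arrays. HSP90B1 lies at -1.34 on scramble arrays, DNAJB9 at 0.54 and SLC3A2 at 0.89 on ONECUT2 shRNA arrays.

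Other genes of the same pathways were read from lists that hold none of the 34. Their shares are read beside those of all genes, 36.5% higher and 24.3% lower in 22Rv1 and 34.1% and 28.0% in LNCaP. Of 30 tested genes of the ATF4 pathway, 12 rose and 8 fell in 22Rv1 (40.0% and 26.7%), and 7 rose and 15 fell in LNCaP (23.3% and 50%). SESN2, a stress-induced regulator of mTORC1, rose by 1.87 ± 0.17 (SE, adjusted p = 6.82e-08) and 1.81 ± 0.17 (SE, adjusted p = 9.01e-08). SARS1, a seryl-tRNA synthetase, rose by 1.13 and 1.04, whereas in LNCaP the isoleucyl-tRNA synthetase IARS1 fell by 0.73 and XPOT, the tRNA exporter, fell by 1.04. ATF3, which dimerises with CEBP and ATF factors and acts with CHOP, rose by 1.44 ± 0.17 (SE, adjusted p = 2e-06) and 2.16 ± 0.17 (SE, adjusted p = 1.71e-08). SLC7A11, which imports cystine, fell in LNCaP by 3.24 ± 0.76 (SE, adjusted p = 0.00175) and did not pass the test in 22Rv1 (-0.24 ± 0.76, SE; adjusted p = 0.805).

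Of 36 tested genes of endoplasmic reticulum folding, transport and degradation, 16 rose and 11 fell in 22Rv1 (44.4% and 30.6%), and 14 rose and 9 fell in LNCaP (38.9% and 25.0%). SPCS3, a signal peptidase subunit, fell by 1.32 ± 0.09 (SE, adjusted p = 3.98e-09) and 1.24 ± 0.09 (SE, adjusted p = 6.51e-09). EDEM2, a relative of EDEM1, rose by 0.95 and 1.90. DNAJB11, an HSPA5 co-chaperone, fell in 22Rv1 by 1.06 ± 0.09 (SE, adjusted p = 6.81e-08) and differed by 0.11 ± 0.09 in LNCaP (SE, adjusted p = 0.335), and SEC24D, a coat protein of vesicles that leave the endoplasmic reticulum, rose by 2.29 and fell by 0.51. Of 13 genes of eIF2 and its kinases, 7 rose and 2 fell in 22Rv1 (53.8% and 15.4%), and 2 rose and 5 fell in LNCaP (15.4% and 38.5%). EIF2AK3, the PERK sensor, rose by 0.65 ± 0.13 in 22Rv1 (SE, adjusted p = 0.000449) and differed by 0.08 ± 0.13 in LNCaP (SE, adjusted p = 0.609). Of 13 tested cytosolic heat shock genes, 4 rose and 5 fell in 22Rv1 (30.8% and 38.5%), and 4 rose and 6 fell in LNCaP (30.8% and 46.2%). On ONECUT2 shRNA against scramble arrays, the ATF4 pathway list counted 11 higher and 2 lower, the endoplasmic reticulum list 13 and 2, the eIF2 list 0 and 4, and the heat shock list 0 and 2, where 13.4% and 16.1% of all genes were called.

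Agreement between probe sets limits some of these readings. The 34 genes had 67 probe sets of their own, and 28 further ones in 16 genes passed the filter. In 22Rv1 overexpression 21 of the 28 had the sign of the one used and 7 did not, and in LNCaP 25 had it and 3 did not. No pair was called in opposite directions in 22Rv1, and 1 was in LNCaP, in ATF6.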

How the data were processed

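Expression was read on 18 Affymetrix U133 Plus 2.0 arrays of 22Rv1 and LNCaP cells, 3 in each of 6 groups taken from the labels. The deposited values are log2 expression values made by the authors with GCRMA, per the submitters' processing notes, with the version and settings not given in the sources used here. They were used as deposited; depth does not apply to arrays, and 3 per group limits the precision.

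Of 54675 probe sets, 62 were controls, 41091 mapped to 1 symbol, 1801 to several and 11721 to none. Of the 41091, 41037 took the RefSeq (GRCh38.p14) symbol of their gene ID, whether or not it differed from the earlier one. Each of 19775 genes was represented by its brightest probe set (highest mean over all arrays), and 12159 genes over log2 4 on at least 3 arrays were tested. One model of 6 group means was fitted to all arrays with limma 3.58.1 in R 4.3.3 (trended, robust empirical Bayes), with Benjamini-Hochberg adjustment across the tested genes and a call at an adjusted p under 0.05. The method was tested on simulated data. Where all 3 arrays of the lower group were under 4, the difference from 4 is given as a bound. In the other pathway lists, up to 3 called genes with the smallest p per comparison, and genes tied directly to one of the 34, were named; their values in the other line are given beside them. The 34 genes and all lists were chosen with earlier results of these data known.

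Same-numbered arrays of different groups did not deviate together (mean correlation 0.02 over 45 pairs, against -0.01 over 90 other pairs), so no pairing was used. Alternatives covered scaling, filter, choice of probe set, array weights, the arrays in the fit, and leaving out each array. Genes of the marker lists that had no entry in the tables used were not analysed here.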

Additional observations from a re-analysis of the deposited data

Results flagged for a closer look

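The change under ONECUT2 overexpression differed between LNCaP and 22Rv1 for 20 of the 34 genes by limma's test of the difference, which 44.7% of all tested genes passed. Values are the LNCaP change minus the 22Rv1 change on the log2 scale, with adjusted p. Higher were DDIT3 (0.85, 0.00652), SLC3A2 (1.58, 0.00015), SLC7A5 (1.83, 0.0179), HSPA5 (0.76, 2.04e-05), HSP90B1 (0.70, 0.0271), PDIA4 (0.60, 0.00278) and CRELD2 (1.21, 0.000137). For HSP90B1 and PDIA4 both lines fell, and the fall was smaller in LNCaP.

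Lower among regulators were TRIB3 (-1.02, 0.000105), CHAC1 (-1.31, 0.00102, on measured values that lie under 4 in 22Rv1 control) and CEBPB (-1.01, 0.000235). Lower among enzymes were ASNS (-1.41, 1.4e-07), PHGDH (-0.96, 3.45e-05), PSAT1 (-0.87, 1.27e-06), SHMT2 (-0.41, 0.03) and MTHFD2 (-1.37, 1.05e-07). GARS1 (-1.005, 0.000912) and WARS1 (-0.42, 0.0421), which charge tRNA, were lower too, as were ERN1 (-1.32, 1.59e-05), SEL1L (-0.52, 0.0249) and PDIA6 (-0.36, 0.011). Another probe set was called the opposite way for PDIA6 (0.97, 0.00029) and for WARS1 (0.89, 0.00759), so the direction of these 2 depends on the probe set. Some other probe sets did not pass for PSAT1 (-0.40, 0.196), SHMT2 (-0.35, 0.161), HSPA5 (0.65, 0.119), SEL1L (-0.42, 0.194) and ERN1 (-0.62, 0.405).

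The calls of WARS1, SEL1L, SHMT2 and HSP90B1 were each lost on leaving out single arrays, 8, 7, 5 and 4 of the 12 in turn. Without LNCaP overexpression replicate 1, ATF6 (-0.80), DNAJB9 (-0.49), DNAJC3 (-0.57), SDF2L1 (0.85) and CALR (0.42) also passed, and WARS1 did not. Groups of 3 arrays are too small for a test of single outlying arrays.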

How the results depend on the processing

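Over the 34 genes and 7 comparisons, 10 alternatives and 18 fits that each left out 1 array were counted. Centring on the tested genes and 22Rv1 arrays alone were counted as well. Of these values, 4068 kept their side of the threshold, 151 passed it newly, 155 lost it and 12 were counted as reversed. Differences called in neither fit could change sign and still count among the 4068. TRIB3 in LNCaP did so, at -0.04 with all arrays and 0.12 without overexpression replicate 1. The 12 counted reversals came with the choice of probe set. With the mean of a gene's probe sets, WARS1 was -0.34 in 22Rv1 overexpression and 0.24 in the difference between lines, PDIA6 was 0.030 in that difference, and SEL1L was 0.69 between the controls. With the most variable probe set, these were -0.91, 0.89, 0.97 and 2.15, and HSPA5 (0.11) and SEL1L (-0.38) in 22Rv1 overexpression and DNAJC3 in LNCaP against 22Rv1 control (0.022) and in ONECUT2 shRNA against 22Rv1 control (-1.35) reversed.

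Counts in the shRNA comparisons moved with the spread used. For ONECUT2 shRNA against scramble, array weights gave 20 genes higher and 3 lower and 6844 of all genes; 22Rv1 arrays alone gave 2 lower and 5713 of all genes; only the compared groups gave 3 lower, and the most variable probe set 2. For scramble against control, array weights gave 3 higher, 13 lower and 6415 of all genes, 22Rv1 arrays alone 2, 13 and 4853, only the compared groups 11 lower and 4629, and centring on the tested genes 11 lower. For ONECUT2 shRNA against control, array weights gave 9 higher, 5 lower and 3416 of all genes, only the compared groups 7, 2 and 1975, 22Rv1 arrays alone 9, 2 and 2116, the most variable probe set 2 and 1, and the mean of probe sets 2 higher. The cause was not tested. The main counts over all genes were 3593, 2659 and 542. Overexpression counts moved as well, from main counts over all genes of 7392 in 22Rv1 and 7557 in LNCaP. With only the compared groups, 18 rose and 14 fell in 22Rv1 (8987 of all genes), and 9 rose and 10 fell in LNCaP (5402). Array weights gave 17 and 14 (9232) in 22Rv1 and 9 and 10 (6101) in LNCaP. In 22Rv1 arrays alone, 16 rose and 14 fell (8751). The array weights stopped before reaching their tolerance. Centring on the tested genes and 22Rv1 arrays alone were chosen after seeing the data.

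Leaving out 1 array gave, for genes higher and lower, 12 to 14 and 10 to 11 in 22Rv1 overexpression (6698 to 6768 of all genes), 9 to 15 and 11 to 13 in LNCaP (6888 to 8837), 6 to 9 and 10 to 15 in their difference (4868 to 7556), 5 to 6 and 15 to 17 between controls (7127 to 7201), 7 to 12 and 1 to 1 for ONECUT2 shRNA against scramble (2761 to 2998), 1 to 1 and 6 to 7 for scramble against control (1864 to 2322), and 0 to 2 and 0 to 0 for ONECUT2 shRNA against control (210 to 503).

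With the replicate number as a block, members higher and lower were 13 and 12 in 22Rv1 overexpression, 10 and 13 in LNCaP, 7 and 12 in their difference, 13 and 1 for ONECUT2 shRNA against scramble, and 6 and 17 between controls; 7369, 7516, 5396, 3520 and 7702 of all genes were called. For scramble and ONECUT2 shRNA against control the block gave 1 and 7, and 1 and 0, with 2590 and 492 of all genes. The numbers do not pair the arrays by the check used (same-number correlations from -0.23 to 0.43). Levels under log2 4 limit CHAC1 and PPP1R15A to bounds.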
